A study of Homo sapiens with 8 samples.

Results

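The genes described here are 10 human genes for amino acid transporters of the plasma membrane, measured on microarrays of myeloma cells in which IRE1 or XBP1 was targeted. They were taken by name, with every probe set whose only annotated symbol was one of them: 25 of the 41091 probe sets that carry a single symbol, and 10 of the 19775 genes these cover. SLC7A1 and SLC1A4 had 5 probe sets each, SLC38A1 had 4, and SLC7A11 and SLC38A2 had 3 each. The other 5 genes, SLC7A5, SLC3A2, SLC1A5, SLC6A9 and SLC43A1, had 1 each. Where a gene had several, the one that varied most across the arrays by SD stood for it.

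The RNA came from JJN3 and RPMI-8226, established human multiple myeloma lines, with 1 culture of each line in each of 4 treatments. One received a lentivirus with a short hairpin RNA (shRNA) directed at IRE1, which the gene ERN1 encodes. Another received an shRNA directed at XBP1, another a non-targeted (NT) shRNA, and the last was uninfected. Virus was left on the cells for 16 h in the presence of polybrene at 8 µg/mL, and RNA was taken from cells harvested at 96 h. A treatment therefore had 2 arrays, 1 per line, and the lines served as the replicates (n = 2). The labels name neither a selection of infected cells nor a repeat culture within a line. In what follows, silenced means the IRE1 and XBP1 shRNA arrays, and control means the NT shRNA and uninfected arrays.

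Cells take up most amino acids through solute carriers, each with its own range of substrates. The heavy chain SLC3A2, known as CD98, carries light chains such as SLC7A5 and SLC7A11 to the plasma membrane, where SLC7A5 exchanges intracellular glutamine for leucine and other large neutral amino acids, and SLC7A11 exchanges glutamate for cystine, the source of cysteine for glutathione. Plasma cells and myeloma cells make large amounts of immunoglobulin and need a steady supply of amino acids. IRE1 is a sensor of stress in the endoplasmic reticulum that splices the mRNA of the transcription factor XBP1, while ATF4 is a transcription factor of the stress and amino acid responses with several transporter genes among its known targets.

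The deposited values are taken as log2 units, and each probe set is centred on a median of 0 over the 8 arrays. They give differences between arrays but no level, so plasma cell markers could not be checked for presence and genes cannot be ranked by expression. The targeted genes were read first. XBP1 (200670_at) stood at 45.6% of NT shRNA on the JJN3 array labelled XBP1 shRNA and at 65.9% on the RPMI-8226 one, and at 16.8% and 64.7% on the arrays labelled IRE1 shRNA. Another XBP1 probe set, 242021_at, did not follow, and lay between 87.1% and 107% of NT shRNA on these 4 arrays. ERN1 (235745_at) stood at 53.9% of NT shRNA on the JJN3 array labelled IRE1 shRNA, but at 129.8% on the RPMI-8226 array with that label, and at 42.9% and 36.7% on the XBP1 shRNA arrays. A second ERN1 probe set, 227755_at, gave 44.7% and 117% on the arrays labelled IRE1 shRNA, and 207061_at lay between 88.6% and 114% on all 4. The RPMI-8226 values of 235745_at were 2.75 uninfected, 1.73 with NT shRNA and 2.11 on the array labelled IRE1 shRNA. Those of 227755_at were 1.78, 0.64 and 0.87. Set against NT shRNA, the RPMI-8226 array labelled IRE1 shRNA thus goes against its label for the targeted gene. With these probe sets it lies below the uninfected array, as does the NT shRNA array. Tests and counts that rest on the array labelled IRE1 shRNA are given with and without it. The hybridisation controls had a median of 0.42 on the JJN3 IRE1 shRNA array and between -0.0047 and 0.048 on the other JJN3 arrays. The poly-A controls were highest with XBP1 shRNA in either line, at medians of 0.19 in JJN3 and 0.43 in RPMI-8226, against -0.05 and 0.25 with NT shRNA. The part of these differences in the results was not tested. In such bulk samples, fewer cells of a kind and less RNA per cell cannot be told apart. Of the markers of other cell types, 0 of 6 probe sets for T and NK cells, 0 of 7 for myeloid cells and 0 of 13 for stromal and epithelial cells passed the limma threshold in any comparison of treatments, with at most 3, 1 and 2 of them at an unadjusted p under 0.05 in any one. Of all probe sets 1.9% were called for IRE1 against XBP1 shRNA, and fewer in the other comparisons made for these markers. Lists this short could therefore hold few calls. Plasma cell markers, a list that holds XBP1, had a median of -0.70 for XBP1 shRNA against NT shRNA, where 1 of 18 probe sets, of PRDM1, a transcription factor of plasma cells, fell, against 0.681% of all, and of -0.74 for silenced against control within JJN3, where 0 of 18 passed (limma; 7 at an unadjusted p under 0.05). Of all probe sets 0.0549% were called lower within JJN3. For IRE1 against XBP1 shRNA 2 of 18, of PRDM1 and IRF4, were called higher, against 0.908% of all. Without the RPMI-8226 array labelled IRE1 shRNA neither was called (0.71 and 0.84), and a probe set of the list was called lower. In that fit more of the list was also called below NT shRNA with either shRNA. With each array left out in turn, this PRDM1 call was lost every time, and the IRF4 call was kept only without an NT shRNA array. The PRDM1 call for XBP1 shRNA against NT shRNA was kept only without a JJN3 silenced array or the RPMI-8226 array labelled IRE1 shRNA.

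RefSeq start sites (GRCh38.p14) were found for 9 of the 10 genes, with 16 windows in all. SLC7A11 had no window, so its promoter was not searched. Short motifs were searched on both strands from 250 bases before to 50 bases after each start. The core of the element bound by ATF4 with CEBP partners, TGATGNAA, was in 5 of the 16 windows and in 3.62% of the 35116 windows of the whole table. The core of the antioxidant response element, TGACNNNGC, was in 4 of 16 windows against 13.3% of all windows. CCACG, which stands in the element bound by XBP1 and ATF6 and can overlap the E-box, was in 10 of 16 against 38.1%. The E-box CACGTG was in 3 of 16 against 7.26%. A match is a description of letters, not a bound site. The windows with TGATGNAA follow, because ATF4 is the factor whose targets are taken up again further on, together with that of SLC7A5, which had no match. SLC38A2, SLC6A9 and SLC43A1 had no match to it either, and their windows are not printed. Capitals mark the match, in the window's own strand.
SLC3A2, window 3, chr11:62881714-62881743, plus strand, match read on the other strand, 38 to 45 bases past the start: ctgaagtaatgtgcaggactccTTACATCA
SLC7A1, chr13:29595674-29595788, minus strand, match 8 to 15 bases past the start: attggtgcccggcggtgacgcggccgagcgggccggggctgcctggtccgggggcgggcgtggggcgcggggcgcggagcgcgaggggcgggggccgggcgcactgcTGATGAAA
SLC1A4, window 2, chr2:64989299-64989399, plus strand, match read on the other strand, across the start: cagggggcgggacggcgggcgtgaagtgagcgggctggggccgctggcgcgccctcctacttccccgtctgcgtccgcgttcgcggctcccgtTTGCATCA
SLC1A5, window 3, chr19:46784815-46784921, minus strand, match upstream of the start: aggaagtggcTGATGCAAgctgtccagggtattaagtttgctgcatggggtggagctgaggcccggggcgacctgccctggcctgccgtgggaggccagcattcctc
SLC38A1, window 2, chr12:46266513-46266616, minus strand, match across the start: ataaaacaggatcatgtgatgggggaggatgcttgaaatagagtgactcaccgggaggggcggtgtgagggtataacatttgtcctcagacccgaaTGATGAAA
SLC7A5, chr16:87869508-87869607, minus strand, no match: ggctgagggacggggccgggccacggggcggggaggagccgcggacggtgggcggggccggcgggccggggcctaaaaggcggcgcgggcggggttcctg

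The silenced arrays read lower than the controls for most of these transporters. The differences were larger in JJN3 than in RPMI-8226 for most genes, although the difference between the lines passed the test for none of them. In JJN3 both silenced arrays lay below both controls for 21 of the 25 probe sets, against 20.3% of all 54613 probe sets. In RPMI-8226 this held for 13 of 25, against 14.5% of all probe sets, and the same 13 met it in both lines together, where the share of all probe sets was 4.11%. By gene, 9 of 10 in JJN3 and 7 of 10 in RPMI-8226 did so. With the RPMI-8226 array labelled IRE1 shRNA left out, the XBP1 shRNA array lay below both controls of that line for 16 of 25 probe sets, against 31.8% of all, and these 16 met it in both lines, against 8.22% of all. SLC6A9 was the exception in JJN3.

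**Figure D1:**
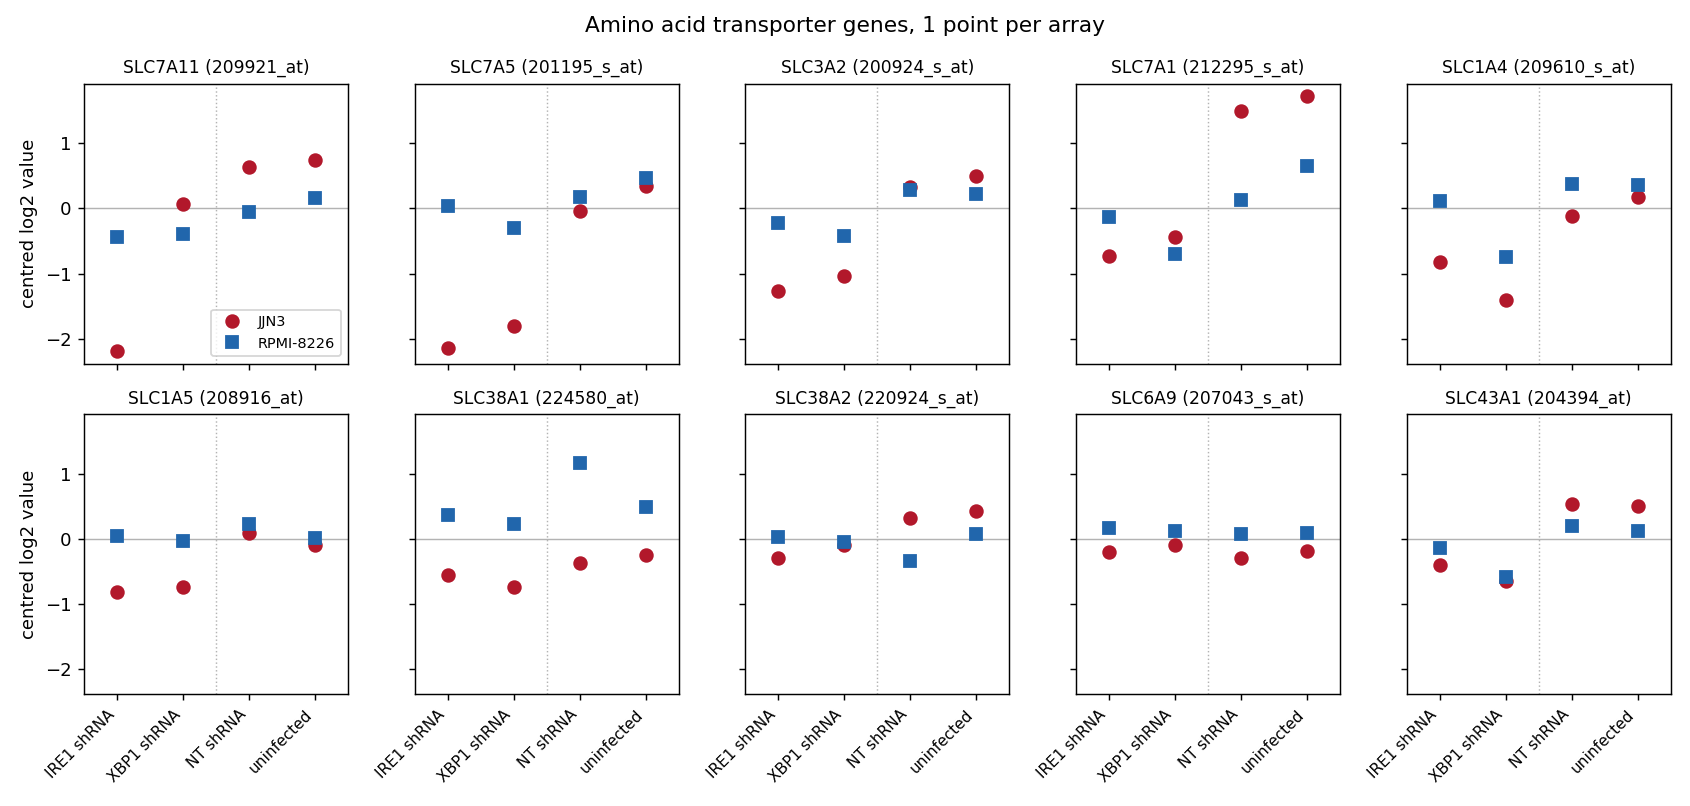
Centred log2 value of each gene on each of the 8 arrays (vertical axis) by treatment (horizontal axis), for the probe set that stands for the gene; circles are JJN3, squares are RPMI-8226, and the dotted line parts silenced from control arrays. In JJN3, SLC7A5 and SLC3A2 lie at -2.15 to -1.04 on the silenced arrays and at -0.04 to 0.50 on the controls, while SLC6A9 stays between -0.28 and -0.09.

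SLC3A2 (200924_s_at), the CD98 heavy chain, read -1.27 with IRE1 shRNA and -1.04 with XBP1 shRNA in JJN3, against 0.33 with NT shRNA and 0.50 uninfected. The RPMI-8226 values were -0.22 and -0.42 on the arrays labelled IRE1 and XBP1 shRNA, against 0.28 with NT shRNA and 0.22 uninfected. All silenced arrays were below all controls in either line. Within JJN3 the gene fell by 1.58 ± 0.15 on the log2 scale (SE; 2 silenced against 2 control arrays; limma, adjusted p = 0.0221). Within RPMI-8226 the difference was -0.57 ± 0.15, with an adjusted p of 0.877.

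SLC7A5 (201195_s_at), the light chain for leucine and other large neutral amino acids, read -2.15 with IRE1 shRNA and -1.81 with XBP1 shRNA in JJN3, against -0.04 with NT shRNA and 0.34 uninfected. The RPMI-8226 arrays labelled IRE1 and XBP1 shRNA read 0.04 and -0.30, against 0.18 with NT shRNA and 0.47 uninfected. On the linear scale the JJN3 arrays stood at 23.2% and 29.4% of NT shRNA, and the RPMI-8226 arrays at 90.9% and 72.0%. SLC7A5 fell by 2.13 ± 0.21 within JJN3 (limma, adjusted p = 0.0240). The difference within RPMI-8226 was -0.45 ± 0.21 (adjusted p = 0.930).

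SLC7A11 (209921_at), the cystine and glutamate exchanger, differed from its partner chain in its pattern over the arrays. It read -2.19 with IRE1 shRNA and 0.06 with XBP1 shRNA in JJN3, against 0.64 with NT shRNA and 0.75 uninfected. In RPMI-8226 the arrays labelled IRE1 and XBP1 shRNA read -0.44 and -0.39, against -0.06 with NT shRNA and 0.16 uninfected. The array of JJN3 with IRE1 shRNA stood far below the other 7, at 14.1% of NT shRNA, while the XBP1 shRNA array of the same line stood at 67.1%. The probe set 217678_at gave 16.7% and 79.1% on these arrays, and 207528_s_at gave 44.2% and 98.3%. The difference within JJN3 was -1.75 ± 0.57 and did not pass the test (limma, adjusted p = 0.384). The JJN3 IRE1 shRNA array is also the one on which the hybridisation controls were high, and their part was not tested.

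SLC7A1 (212295_s_at), the carrier of arginine and lysine, read -0.73 with IRE1 shRNA and -0.44 with XBP1 shRNA in JJN3, against 1.49 with NT shRNA and 1.72 uninfected. RPMI-8226 gave -0.13 and -0.70 on the arrays labelled IRE1 and XBP1 shRNA, against 0.13 with NT shRNA and 0.65 uninfected. The groups did not overlap in either line. SLC7A1 fell by 2.19 ± 0.24 within JJN3 (limma, adjusted p = 0.0379), with -0.81 ± 0.24 in RPMI-8226 (adjusted p = 0.886). Its 5 probe sets did not move alike: within JJN3 212290_at differed by -1.60 (adjusted p = 0.0662) and 212292_at by -0.64, but 206566_at by -0.26 and 215979_s_at by -0.17. The SLC7A1 call within JJN3 was lost after cyclic loess (-2.01, limma, adjusted p = 0.0513) and after quantile normalisation (-2.06, 0.0784). With its 5 probe sets averaged, SLC7A1 differed by -0.97 within JJN3 (limma, adjusted p = 0.0297).

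SLC1A4 (209610_s_at), an exchanger of alanine, serine, cysteine and threonine, was lowest with XBP1 shRNA. In JJN3 it read -0.82 with IRE1 shRNA and -1.41 with XBP1 shRNA, against -0.12 with NT shRNA and 0.18 uninfected. In RPMI-8226 the values were 0.12 and -0.75 on the arrays labelled IRE1 and XBP1 shRNA, against 0.37 with NT shRNA and 0.36 uninfected. The XBP1 shRNA arrays stood at 40.9% and 46.0% of NT shRNA in JJN3 and RPMI-8226, and the arrays labelled IRE1 shRNA stood at 61.5% and 83.9%. The SLC1A4 probe set 244377_at was lowest on the uninfected array in RPMI-8226, at -0.46, against -0.29 with XBP1 shRNA. Silenced and control arrays of RPMI-8226 overlapped for 244377_at and 209611_s_at. SLC1A5 (208916_at), the main glutamine carrier of many cancer cells, read -0.81 and -0.73 on the JJN3 IRE1 and XBP1 shRNA arrays, against 0.09 with NT shRNA and -0.08 uninfected. In RPMI-8226 its 4 arrays lay between -0.02 and 0.24, and the silenced and control arrays overlapped.

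SLC43A1 (204394_at), a carrier of branched-chain amino acids that works without a heavy chain, read -0.39 with IRE1 shRNA and -0.64 with XBP1 shRNA in JJN3, against 0.54 with NT shRNA and 0.51 uninfected. Its RPMI-8226 values were -0.13 and -0.59 on the arrays labelled IRE1 and XBP1 shRNA, against 0.20 with NT shRNA and 0.13 uninfected. As with SLC1A4, the XBP1 shRNA array was the lowest in both lines, at 44.1% of NT shRNA in JJN3 and 57.9% in RPMI-8226.

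SLC38A1 and SLC38A2 encode sodium-coupled carriers of small neutral amino acids such as glutamine and alanine and are neighbours on chromosome 12, with 0 protein-coding genes between them. SLC38A1 (224580_at) read -0.54 and -0.73 on the JJN3 IRE1 and XBP1 shRNA arrays, against -0.36 with NT shRNA and -0.24 uninfected. In RPMI-8226 it read 0.37 and 0.24, against 1.17 with NT shRNA and 0.49 uninfected, so the NT shRNA array was the highest there. SLC38A2 (220924_s_at) went in opposite directions in the lines: relative to NT shRNA the IRE1 and XBP1 shRNA arrays stood at 65.3% and 74.6% in JJN3, and at 129.6% and 123% in RPMI-8226. In RPMI-8226 its silenced arrays, 0.04 and -0.04, lay between the NT shRNA array at -0.34 and the uninfected array at 0.08. SLC6A9 (207043_s_at), a glycine transporter, stood between 103% and 115% of NT shRNA on the 4 silenced arrays.

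**Figure D2:**
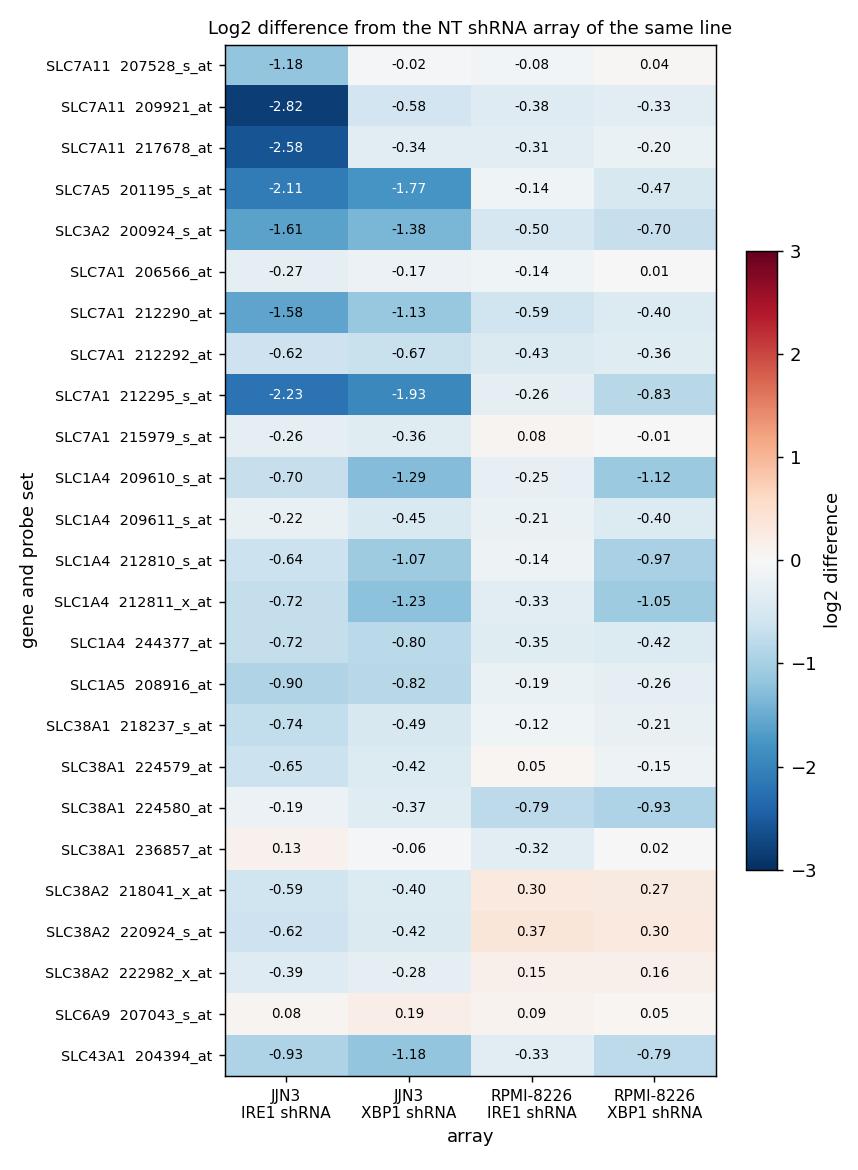
Log2 difference of each silenced array from the NT shRNA array of the same line (columns) for all 25 probe sets (rows); blue is lower and red is higher than NT shRNA. The JJN3 columns hold the lowest values, down to -2.82 for SLC7A11 with IRE1 shRNA, and SLC38A2 is blue in JJN3 and pale red in RPMI-8226.

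XBP1 shRNA against NT shRNA asked what changed when XBP1 was targeted. SLC1A4 and SLC43A1 fell, the first with 3 of its 5 probe sets, and no member rose. In all, 4 of the 25 probe sets passed the threshold in the lower direction, against 0.681% of all probe sets. SLC1A4 fell by 1.21 ± 0.19 on the log2 scale with 209610_s_at (limma, adjusted p = 0.0276), by 1.14 with 212811_x_at and by 1.02 with 212810_s_at. SLC43A1 fell by 0.98 ± 0.18 (limma, adjusted p = 0.0456). The heavy chain SLC3A2 differed by -1.04 ± 0.28 (adjusted p = 0.129), SLC7A1 by -1.38 ± 0.38 (0.135) and SLC7A5 by -1.12 ± 0.43 (0.288), none of which passed. Over the 10 genes the median difference was -0.82, against -0.00044 over all genes, and 23 of 25 probe sets were below 0, against 49.9% of all. An unadjusted p under 0.05 was found for 13 of 25 and for 7483 of all 54613. Without any 1 of the 4 NT and XBP1 shRNA arrays no member kept its call, with SLC1A4 between -1.27 and -1.14. Without an NT shRNA array nearly all calls of the whole array were lost as well. Without an XBP1 shRNA array many probe sets of the whole array were still called. The SLC43A1 call was lost without any 1 of the 8 arrays. After quantile normalisation or cyclic loess 0 of 25 passed as well, with SLC1A4 at -1.28 (limma, adjusted p = 0.0514) and -1.02 (0.156), and the high poly-A controls of the XBP1 shRNA arrays stand beside this comparison.

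IRE1 shRNA against NT shRNA, the same question for IRE1, gave 0 of 25 calls, against 0.0146% of all probe sets called lower (limma; 14 of 25 had an unadjusted p under 0.05). The median over the 10 genes was -0.59, against -6.01e-05 over all genes, and 24 of 25 probe sets were below 0. SLC3A2 differed by -1.06 ± 0.28 (adjusted p = 0.265), SLC43A1 by -0.63 ± 0.18 (0.298), SLC7A1 by -1.24 ± 0.38 (0.323) and SLC7A11 by -1.60 ± 0.49 (0.323). Without the RPMI-8226 array labelled IRE1 shRNA, the lone JJN3 array is assumed to vary like the other treatments, and 2 of 25 probe sets passed, 209921_at and 217678_at of SLC7A11, against 0.0623% of all probe sets called lower in that fit. SLC7A11 fell by 2.76 in that fit (limma, adjusted p = 0.0202), and the median over the 10 genes was -0.84.

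The arrays labelled IRE1 shRNA and XBP1 shRNA were compared directly, to ask whether targeting either gene differs. None of the 25 probe sets passed (0 of 25, against 1.9% of all probe sets in either direction; limma, 6 of 25 at an unadjusted p under 0.05). The nearest was SLC1A4, at 0.73 ± 0.19 (95% confidence interval 0.31 to 1.15; limma, adjusted p = 0.0952), and at 0.48 without the RPMI-8226 array labelled IRE1 shRNA (0.445). SLC7A11 was at -1.15 ± 0.49 (adjusted p = 0.349), and at -2.31 without that array (limma, adjusted p = 0.0214; 217678_at of the same gene was the other of 2 of 25 called, against 0.211% of all called lower in that fit). For SLC3A2 and SLC7A5 the intervals ran from -0.66 to 0.63 and from -0.98 to 0.98.

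The NT shRNA arrays were set against the uninfected arrays to ask what the lentivirus itself does. No member was called (0 of 25, against 0% of all probe sets; limma, 0 of 25 at an unadjusted p under 0.05). The largest difference among the 10 genes was -0.38 ± 0.38 for SLC7A1. Over the 10 genes the median was -0.10, and 0.06 after cyclic loess, so its sign depends on the scaling.

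Silenced against control pooled both lines and both shRNAs, 4 arrays against 4. Again 0 of 25 passed, against 0% of all probe sets (limma; 16 of 25 had an unadjusted p under 0.05, against 5080 of all 54613). SLC3A2 differed by -1.07 ± 0.19 (adjusted p = 0.155), SLC7A1 by -1.50 ± 0.28 (0.156), SLC43A1 by -0.78 ± 0.15 (0.156) and SLC7A5 by -1.29 ± 0.31 (0.229). Without the RPMI-8226 array labelled IRE1 shRNA, SLC43A1 fell by 0.93 (limma, adjusted p = 0.0480) and was the 1 of 25 called, against 0.0641% of all probe sets called lower in that fit.

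**Figure D3:**
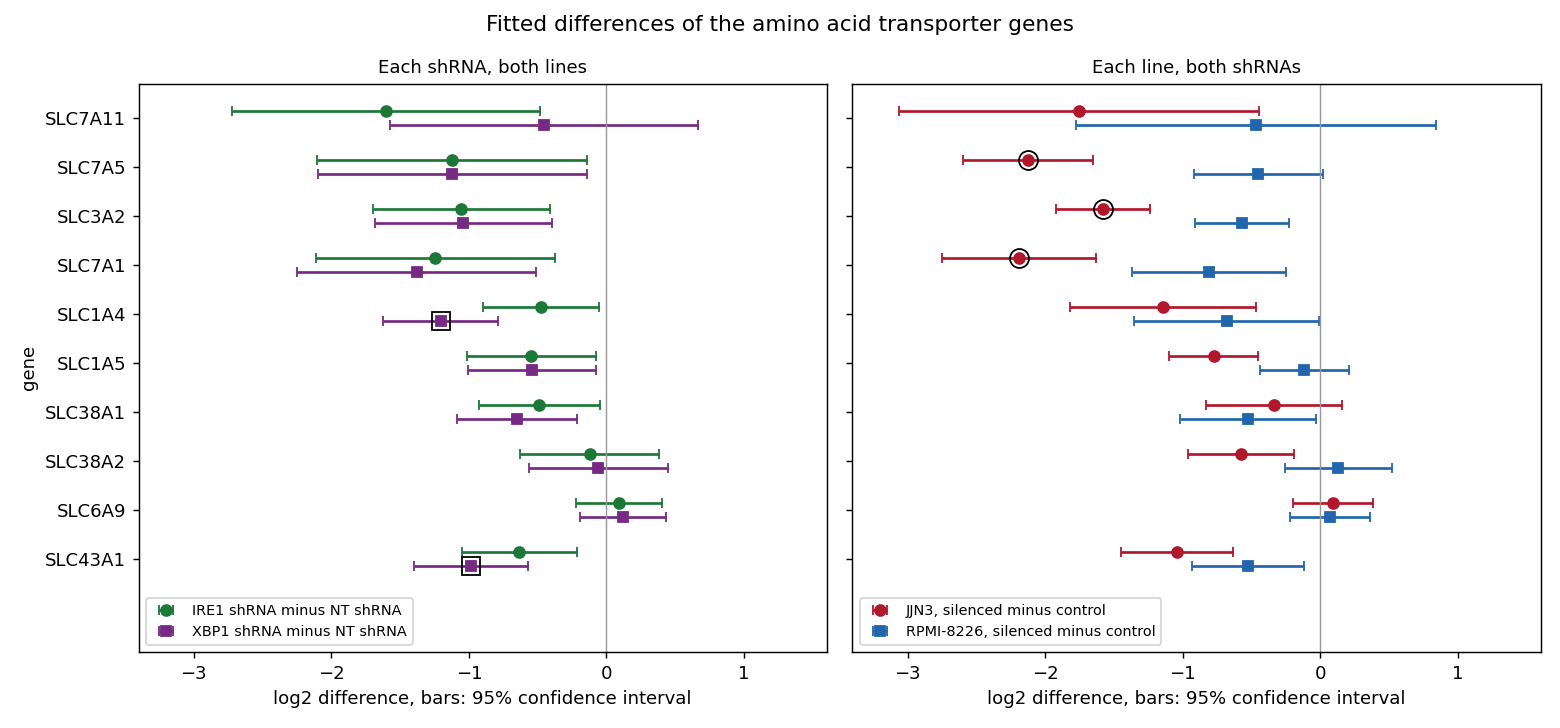
Fitted log2 differences (horizontal axis) of the 10 genes with 95% confidence intervals; the left panel gives each shRNA against NT shRNA over both lines, the right panel silenced against control in each line, and a black outline marks an adjusted p under 0.05. In JJN3, SLC7A5, SLC3A2 and SLC7A1 are outlined at -2.13, -1.58 and -2.19, and the RPMI-8226 values of these genes lie at -0.45, -0.57 and -0.81.

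Within JJN3 the CD98 heavy chain, its light chain SLC7A5 and the cationic carrier SLC7A1 fell in silenced against control arrays. These were 3 of 25 probe sets, against 0.0549% of all probe sets called lower, and 19 of 25 had an unadjusted p under 0.05. SLC43A1 at -1.04 ± 0.18 (limma, adjusted p = 0.116) and SLC1A5 at -0.77 ± 0.14 (0.144) came next among the genes. Within RPMI-8226 0 of 25 passed, against 0% of all (limma; 7 of 25 at an unadjusted p under 0.05), and the median of the 10 genes was -0.50, against -1.09 in JJN3. Without the RPMI-8226 array labelled IRE1 shRNA that median was -0.61, with SLC7A1 at -1.09 (limma, adjusted p = 0.266) and SLC1A4 at -1.11 (0.266). In these fits unlike treatments stood as the replicates of a line, 2 against 2. The 3 JJN3 calls held without the RPMI-8226 array labelled IRE1 shRNA (0.0238% of all called lower in that fit). They were lost without either NT shRNA array or either uninfected array. In those fits every call of the whole array within JJN3 was lost too, so the loss is not particular to these genes.

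Whether silencing acted differently in the lines was tested as an interaction, the JJN3 effect minus the RPMI-8226 effect. It gave 0 calls among 25, against 0% of all (limma; 8 of 25 at an unadjusted p under 0.05). SLC7A5 was at -1.68 ± 0.29 (unadjusted p = 0.000375; limma, adjusted p = 0.704), SLC7A1 at -1.38 ± 0.34 (0.807) and SLC3A2 at -1.01 ± 0.21 (0.786). SLC38A1 at 0.19 ± 0.30 and SLC6A9 at 0.02 ± 0.18 were above 0. Without the RPMI-8226 array labelled IRE1 shRNA, SLC7A5 was at -1.51 (adjusted p = 0.575). The larger effect in JJN3 is a description and did not pass its own test.

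Counted by fold on single arrays, JJN3 held most of the large differences. On the JJN3 IRE1 shRNA array 7 of 25 probe sets were at least 2-fold below NT shRNA, against 0.95% of all, and on the JJN3 XBP1 shRNA array 8 of 25, against 0.991%. On the RPMI-8226 array labelled IRE1 shRNA there were 0 of 25, against 0.355%, and on the RPMI-8226 XBP1 shRNA array 2 of 25, both of SLC1A4, against 1.25%. These counts compare single arrays and carry no test.

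The genes varied together to different degrees. With each line's mean removed, SLC7A5 and SLC7A1 correlated at r = 0.985 over the 8 arrays, SLC7A5 and SLC3A2 at 0.982, and SLC3A2 and SLC7A1 at 0.980. SLC1A4 and SLC43A1 correlated at 0.965, while SLC7A11 correlated with SLC7A5 at 0.812 and with SLC1A4 at 0.446. SLC6A9 was negative with all the others, from -0.70 to -0.16, and SLC38A1 with SLC38A2 was at -0.04. Over the 7 arrays without the RPMI-8226 array labelled IRE1 shRNA, these values were 0.985, 0.986 and 0.982 for the 3 pairs first named, 0.970 for SLC1A4 and SLC43A1, 0.815 and 0.459 for SLC7A11, -0.76 to -0.12 for SLC6A9, and 0.01 for SLC38A1 with SLC38A2. These are descriptions over 8 arrays that share 4 treatments and 2 lines. Within a gene, probe sets correlated at 0.982 to 0.997 for SLC38A2 and at 0.736 to 0.998 for SLC1A4, but from 0.269 for SLC7A1 and from -0.53 for SLC38A1.

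Genes of like pattern were looked for among 824 other genes with a within-line SD of at least 0.5, by the same correlation over the 8 arrays. For SLC7A5 the highest correlations were CEBPB, a stress-induced transcription factor, at 0.999, LINC02806 at 0.990, STC2, a secreted glycoprotein, at 0.989 and AARS1, the alanyl-tRNA synthetase, at 0.989. For SLC3A2 they were LINC00662 at 0.996, FAM107B at 0.993, PSPH, the last enzyme of serine synthesis, at 0.990 and AARS1 at 0.988. For SLC7A11 they were SARS1, the seryl-tRNA synthetase, at 0.985, TRPM8, a cold-sensing channel, at 0.981, CARS1, the cysteinyl-tRNA synthetase, at 0.978 and BLTP3A at 0.969. Of the 824 genes, 51, 55 and 32 exceeded 0.9 for SLC7A5, SLC3A2 and SLC7A11. Over 7 arrays, without the RPMI-8226 array labelled IRE1 shRNA, 3 of the 4 genes named for SLC7A5, 3 of the 4 for SLC3A2 and 2 of the 4 for SLC7A11 were again the 4 highest for their transporter, and RPIA, at 0.990, was then the highest for SLC7A11.

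Several transporter genes are among the known targets of ATF4, so the ATF4 stress pathway was read as a list of 28 genes without the transporters themselves. Its median was -1.33 within JJN3 and -0.32 within RPMI-8226, against -1.09 and -0.50 for the transporters and -0.0082 and 0.01 for all genes. Its median within RPMI-8226 was -0.43 with the array labelled IRE1 shRNA left out. Within JJN3, 4 of its 28 genes fell and 0 rose, against 21 called lower and 3 called higher of all 19775 genes. The 4 were PSAT1, an enzyme of serine synthesis, at -2.46 ± 0.22, PSPH at -1.93 ± 0.22, CEBPB at -1.45 ± 0.16 and CBS, an enzyme of cysteine synthesis, at -1.16 ± 0.14 (limma, adjusted p = 0.0181, 0.0379, 0.0342 and 0.0490). Without the RPMI-8226 array labelled IRE1 shRNA, which enters this fit through the spread, PSAT1 kept its call (adjusted p = 0.0439) and the other 3 did not (0.0626, 0.0626 and 0.0867). Each array was also left out in turn. All 4 calls were lost without any 1 of the NT shRNA and uninfected arrays of either line, as was every call of the whole array. PSPH and CEBPB were lost also with the XBP1 shRNA array of RPMI-8226 left out, and CBS without any 1 of the 8. ATF4 (200779_at) itself was at -1.32 ± 0.28 within JJN3 (adjusted p = 0.182) and -0.27 ± 0.28 within RPMI-8226 (0.963). Its targets ASNS, the asparagine synthetase, and CHAC1, which degrades glutathione, were at -2.30 and -2.05 within JJN3 with adjusted p of 0.203 and 0.0762. For XBP1 shRNA against NT shRNA the median of the list was -0.62 with 0 of 55 probe sets called (limma; 19 at an unadjusted p under 0.05), and for IRE1 shRNA -0.82 with 0 of 55 (25 at an unadjusted p under 0.05). The shares of all called lower in these comparisons were 0.681% and 0.0146%. Without the RPMI-8226 array labelled IRE1 shRNA the median for IRE1 shRNA was -1.21 and 7 of 55 probe sets fell, against 0.0623% of all. In the same fit 3 of 55 fell with XBP1 shRNA, against 0.357% of all.

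Other lists around amino acid use had medians nearer 0. The ATF4 list shares CHAC1 with glutathione and cystine use, ASNS with glutamine and glutamate use, and SESN2 with amino acid sensing by mTORC1. Of 40 other measured amino acid transporter genes, with 97 probe sets, 0 were called for XBP1 shRNA, for IRE1 shRNA or within JJN3 (limma; 18, 15 and 5 probe sets at an unadjusted p under 0.05). Of all probe sets 0.681%, 0.0146% and 0.0549% were called lower in these comparisons. The median of these 40 genes within JJN3 was -0.04. The 17 measured genes of glutathione and cystine use had a median of -0.13 within JJN3 and 0 calls in 29 probe sets, against 0.0549% of all called lower (limma; 5 at an unadjusted p under 0.05). Among 14 genes of glutamine and glutamate use, BCAT1, which transaminates branched-chain amino acids in the cytosol, fell by 1.30 ± 0.14 with XBP1 shRNA against NT shRNA (limma, adjusted p = 0.0111). Of the 30 probe sets of that list 2 were called lower there, against 0.681% of all. The BCAT1 call was lost without either NT shRNA array. BCAT1 was also 1.31 ± 0.14 higher with IRE1 shRNA than with XBP1 shRNA (limma, adjusted p = 0.00872). There 2 of 30 were called higher, against 0.908% of all. The difference was 1.37 without the RPMI-8226 array labelled IRE1 shRNA, where it was still called. This call was lost without the JJN3 IRE1 shRNA array. Among 32 genes of amino acid sensing by mTORC1, MIOS, a subunit of the GATOR2 complex, was 1.17 ± 0.15 higher with IRE1 shRNA than with XBP1 shRNA (limma, adjusted p = 0.0122). That is 1 of the 79 probe sets of the list, near the 0.908% of all called higher. The call was lost without the RPMI-8226 array labelled IRE1 shRNA (1.12), and without the JJN3 IRE1 or XBP1 shRNA array. The median of that list within JJN3 was 0.08. Without the RPMI-8226 array labelled IRE1 shRNA, no more than a few of the 79 probe sets of the mTORC1 list were called below NT shRNA with either shRNA. Of the 30 probe sets of the glutamine and glutamate genes, no more than a few were called lower with IRE1 shRNA. The medians for IRE1 shRNA against NT shRNA were then -0.05 for the mTORC1 list and -0.19 for the glutamine and glutamate genes.

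**Figure D4:**
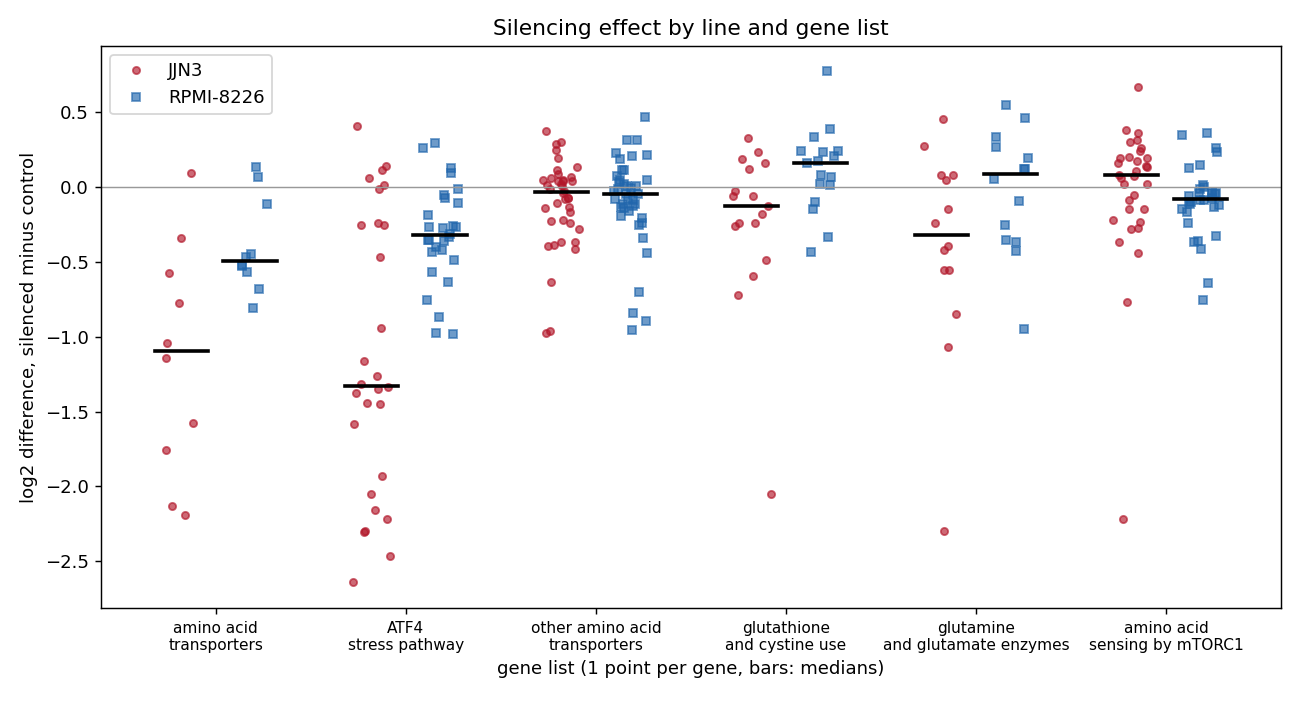
Log2 difference of silenced against control arrays within each line (vertical axis), 1 point per gene, for the 10 transporters and 5 gene lists (horizontal axis); circles are JJN3, squares are RPMI-8226, and black bars are medians. The JJN3 medians are -1.09 for the transporters, -1.33 for the ATF4 stress pathway and between -0.32 and 0.08 for the other 4 lists.

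Between the lines, over matched treatments, SLC38A1 was lower in JJN3 with all 4 of its probe sets. Its 224580_at read -0.73 to -0.24 on the JJN3 arrays, against 0.24 to 1.17 on the RPMI-8226 arrays, with no overlap. The difference was -1.03 ± 0.14 (4 arrays each; limma with treatment as the block, adjusted p = 0.000222). SLC7A5 was lower as well at -1.01 ± 0.31 (0.0197), SLC1A4 at -0.56 ± 0.13 (0.00574), SLC1A5 at -0.45 ± 0.15 (0.0260) and SLC6A9 at -0.31 ± 0.10 (0.0229). In all, 13 of 25 probe sets were called lower in JJN3, against 33.3% of all probe sets, and 1 was called higher, 244377_at of SLC1A4 at 0.62 ± 0.18, against 22.8% of all; the other 4 probe sets of that gene were called lower. The median of all genes was -0.23 in this comparison, and SLC6A9 is close to it. The 3′ minus 5′ actin signal also moved with the line, 0.13 to 0.42 in JJN3 against -0.61 to -0.43 in RPMI-8226, and its part was not tested.

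Scaling changes this comparison. Cyclic loess shifted the median of all genes by 0.13 and turned the split of all calls, with 46.7% of them lower in JJN3, against 59.4% with the values as deposited. With cyclic loess 11 of 25 member probe sets were lower and 2 higher, with quantile normalisation 9 and 1, and with array medians subtracted 8 and 1. In the same order, 11959, 13872 and 13427 of all 54613 probe sets were lower, and 13653, 13180 and 13741 were higher. SLC38A1 passed in all 18 alternatives run, between -1.19 and -0.72. After cyclic loess SLC7A5 was at -2.58 and SLC1A4 at -1.38. The SLC1A5 call was lost with array medians subtracted (limma, adjusted p = 0.0599) and with quantile normalisation (0.0549). The SLC6A9 call was lost under all 3 scalings, and without any NT shRNA, uninfected or IRE1 shRNA array. The SLC7A5 and SLC1A5 calls were lost without any IRE1 or XBP1 shRNA array, with SLC7A5 at -0.62 and SLC1A5 at -0.32 without an IRE1 shRNA array. The differences of SLC7A11 (209921_at) and SLC7A1 (212295_s_at) rest on the IRE1 shRNA arrays. Without either of these, SLC7A11 was 0.58 higher in JJN3, against -0.00 ± 0.35 with all arrays, and SLC7A1 was 0.90 higher, against 0.52 ± 0.27. With all arrays the other probe sets of these genes were split. Above 0 were 217678_at of SLC7A11 at 0.17 and 212290_at of SLC7A1 at 0.12. Below 0 were 206566_at and 215979_s_at of SLC7A1 at -0.14 and -0.18, and none of these was called. In JJN3, 207528_s_at of SLC7A11 was called lower at -0.48 and 212292_at of SLC7A1 at -0.33 (limma, adjusted p = 0.0391 and 0.0309).

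**Figure D5:**
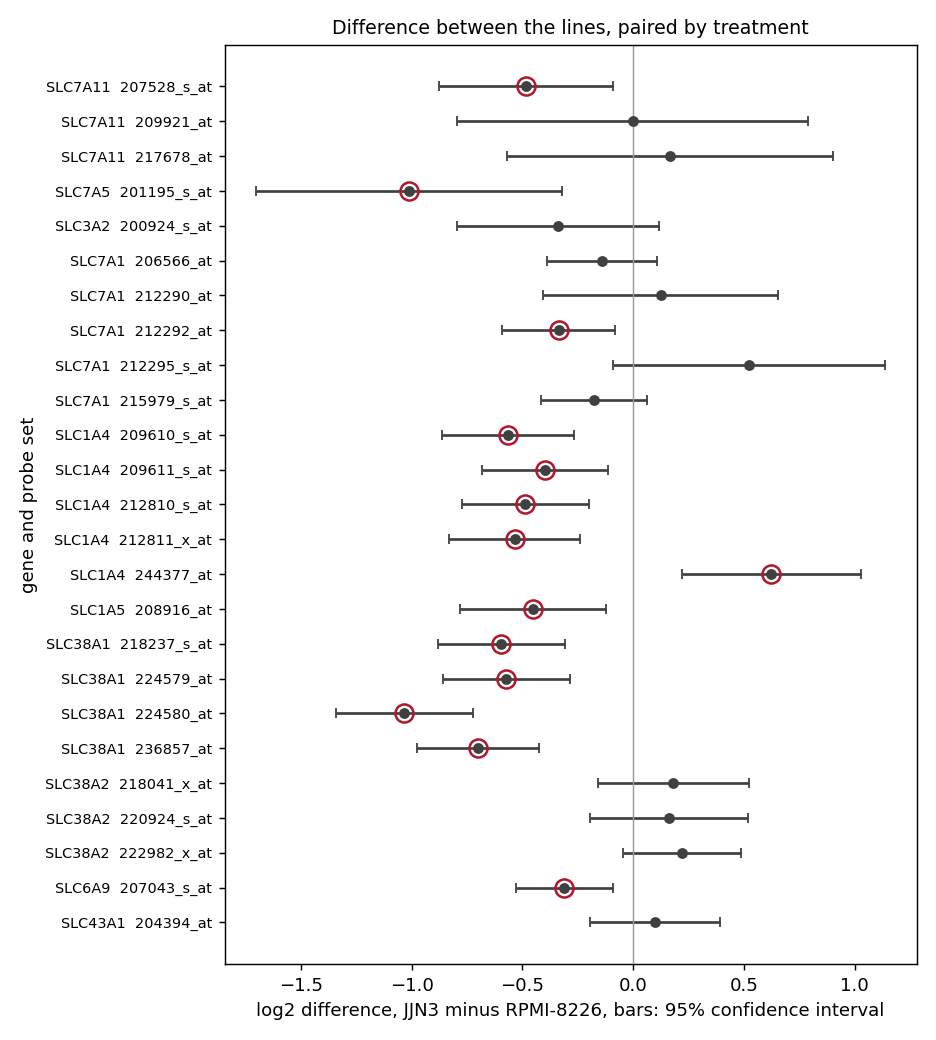
Log2 difference of JJN3 minus RPMI-8226 over matched treatments (horizontal axis) for the 25 probe sets (vertical axis), with 95% confidence intervals; red outlines mark an adjusted p under 0.05. The 4 probe sets of SLC38A1 lie between -1.03 and -0.57, and the SLC1A4 probe set 244377_at lies at 0.62, opposite to the other 4 of its gene.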

How the data were processed

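Total RNA of 8 cultures was hybridised to Affymetrix U133 Plus 2.0 arrays. Per the submitters' processing notes the authors used RMA, with no version given. The deposited values were taken as log2, since RMA returns that scale; log base and centring are not stated in the sources used here. The median across arrays was 0 for each of the 54675 probe sets, within 1e-06. A total of 62 control probe sets were left out and 54613 tested. Genes were named from the array annotation: 41091 probe sets had 1 symbol, 1801 several and 11721 none.

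Linear models came from limma 3.58.1 (R 4.3.3; lmFit, then eBayes; two-sided, Benjamini-Hochberg over all probe sets tested, threshold 0.05). Treatments were compared with the cell line as a block, since the line pairs the arrays; within-line effects and their interaction used 4 groups of 2 arrays; the lines were compared with treatment as a block. The p-values measure the spread between these arrays, whose number limits the precision. The script was tested on simulated data. The members, gene lists and named genes (all 10 members, called genes of each list up to 4 per comparison, and the 4 most like patterns of SLC7A11, SLC7A5 and SLC3A2) were chosen with earlier results of these data known. ATF4, ASNS and CHAC1 fall outside that rule and were chosen after their values were seen. Alternatives were other scalings, filters, weights, gene summaries, controls, no block, and leaving out each array; the gene lists, correlations and counts of arrays that do not overlap without the RPMI-8226 array labelled IRE1 shRNA, and the named list genes without each array, were added after seeing the data. Figures were drawn with matplotlib 3.10.9 in Python 3.11.15.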

Additional observations from a re-analysis of the deposited data

Results flagged for a closer look

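In groups of 4 arrays, 4 of 100 tests found an array whose gap to its nearest neighbour was large for the group's range (Dixon's test); chance alone gives about 1 in 20 such groups. The SLC7A11 probe set 217678_at on the JJN3 IRE1 shRNA array, at -1.87, stood apart from the other JJN3 arrays. The SLC7A11 probe set 207528_s_at on the same array, at -1.17, stood apart among the 4 silenced arrays, and on the JJN3 uninfected array, at -0.474, it stood apart among the 4 control arrays. The SLC1A4 probe set 212810_s_at on the RPMI-8226 XBP1 shRNA array, at -0.683, stood apart from the other RPMI-8226 arrays. The representative SLC7A11 probe set, 209921_at, was not among these.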

How the results depend on the processing

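No called gene changed direction under the alternatives run. For XBP1 shRNA against NT shRNA the count of 4 member probe sets became 1 with array weights and 0 with cyclic loess or quantile normalisation. It was also 0 with no replicate block (no cell line term). With arrays left out in turn, no call was kept without any NT or XBP1 shRNA array. Fewer were made without an uninfected array or an array labelled IRE1 shRNA. Nearly all calls of the whole array were lost only without an NT shRNA array. The 2 genes called for XBP1 shRNA against NT shRNA became 1 when the probe sets of a gene were averaged. For IRE1 shRNA against NT shRNA, and against XBP1 shRNA, leaving out arrays gave 0 to 2, with 2 in both cases without the RPMI-8226 array labelled IRE1 shRNA. Silenced against control gave 0 to 1. Within JJN3 the 3 calls were lost, with all others of the whole array, without an NT shRNA or uninfected array of either line. Without the JJN3 XBP1 shRNA array more probe sets were called, among the members and over the whole array. A lone array was there assumed to vary like the other groups. JJN3 against RPMI-8226 gave 14 called as deposited, 9 with array medians subtracted, 6 with no replicate block (no treatment term) and 10 to 12 without single arrays. Among all calls within JJN3, 61.5% were lower after cyclic loess, against 78.9% as deposited. Between the lines, single genes passed in 18 of 18 alternatives for SLC38A1, 16 of 18 for SLC1A4, 13 of 18 for SLC7A5, 11 of 18 for SLC1A5 and 8 of 17 for SLC6A9. With no replicate block SLC7A5 (adjusted p = 0.115), SLC1A4 (0.201) and SLC1A5 (0.0773) were lost, and SLC1A4 also with probe sets averaged (-0.27, 0.0872). Calls held in 12 of 20 for SLC1A4 and 8 of 20 for SLC43A1 with XBP1 shRNA, and within JJN3 in 13 of 17 for SLC3A2 and SLC7A5 and 10 of 17 for SLC7A1. The cause of these changes was not tested. The centred values hold no signal over background, so dim probe sets could not be set aside.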
